A study of Mus musculus with 11 samples.

Results

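The genes described here are 9 genes of motile cilia, Foxj1, Dnah5, Dnah9, Dnah11, Rsph1, Hydin, Spag16, Tekt1 and Ccdc153. They were taken by name, all 9 were found among the 24421 entries listed for each sample, and they were compared across brain regions and between replicates. RNA was sequenced from eGFP-positive cells sorted from the olfactory bulb (OB, 3 samples), hippocampus (HC, 3 samples), cortex (CX, 2 samples) and brainstem (BS, 3 samples). All donors were untreated 16-week-old BAC Aldh1l1-eGFP mice on the C57BL/6 strain, in which regulatory sequence of the astrocyte gene Aldh1l1 drives the green fluorescent protein, so the sort collected whatever cells carried that signal. Mice of both sexes were used. The labels do not say whether a sample is 1 mouse or a pool, so the p-values below set differences against the spread between these samples, which may be partly technical.

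Motile cilia are beating, hair-like extensions whose core is a ring of microtubule doublets around a central pair. Dynein motor arms on the doublets make them slide, radial spokes and the central apparatus set the beat, and the transcription factor Foxj1 turns on much of the gene programme. In the brain they are best known from ependymal cells, which line the ventricles and move cerebrospinal fluid, while epithelial cells of the choroid plexus carry tufts of cilia and express Foxj1 as well. Astrocytes bear a single, non-motile primary cilium.

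Reads counted on genes lay between 2830746 and 14151670 per sample, with a median of 5552215. Values are normalized counts, that is reads divided by 1 size factor per sample, and 1 read was worth between 0.367 in HC_3 and 2.10 in BS_3. BS_2 and BS_3, the shallowest samples, and both CX samples are therefore the coarsest at low values. A count of 3 reads was taken as the detection floor, which covers counting error only. The astrocyte markers Aldh1l1, Gfap, Aqp4 and Slc1a3 were detected in every region, so the labelled cell type was present in all of them. Their levels were not even, although region means of Aldh1l1 lay between 764 (HC) and 1180 (CX). Slc1a3 was 1953 to 6315 in the BS samples and 14218 to 33551 in all others. Gfap was 3168 to 4028 in the OB and HC samples and 889.5 to 1779 in the CX and BS samples. Aqp4 ran from 5077 in HC_1 to 20767 in BS_2.

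Other ependymal genes gave a mixed picture. Ccdc153, the member used most as an ependymal marker, had 0 reads in all 3 BS samples, among 11481176 BS reads in all. Tmem212, another ciliated ependyma gene, had no read in the OB or BS and 1 read each in the HC and CX. Rarres2, a secreted protein abundant in ependymal cells, had a BS mean of 10.4 ± 7.65 (SD, n = 3) and an HC mean of 22.2 ± 8.96 (SD, n = 3). The summed value of 10 ependymal markers that are not ciliary was 3689 to 8019 in the BS, 6423 to 11384 in the HC, 7686 to 9766 in the OB and 4936 to 7919 in the CX, so the sum did not set the BS above the OB. Single genes of that list had higher region means in the HC and BS than in the OB and CX. Pltp, a phospholipid transfer protein, had means of 98.4 (OB), 201.5 (HC), 93.4 (CX) and 215.3 (BS), and Mia had means of 10.3 (OB), 35.8 (HC), 8.51 (CX) and 42.2 (BS). Tm4sf1 had means of 26.45 (OB), 49.7 (HC, with an SD of 63.2), 21.8 (CX) and 49.05 (BS). Its samples overlapped, with HC_2 (8.22) and HC_3 (18.3) below OB_1 (39.1) and CX_2 (39.9). Rarres2, Mia and Tm4sf1 add little to the sum. Between the OB and BS, the median log2 difference of the list was -0.61, lower in the OB. Against the pooled other regions, the median log2 difference of the 10 markers was -0.30 (OB), 0.34 (HC), -0.45 (CX) and 0.25 (BS). Of the 10, 1 passed as higher in the OB and 1 as lower in the BS, where 4.15% and 5.05% of all genes did. Both calls ran opposite to these medians, and Pltp, Mia and Tm4sf1 were not among them. Since the members are defined by their role in motile cilia, and the ependymal markers were mixed, the 9 genes are called motile cilium genes below.

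Foxj1, the forkhead transcription factor that directs motile cilium assembly, lies on the minus strand of chromosome 11 from 116330704 to 116335399 (GRCm38). Its normalized count was 319.6, 84.1 and 258.9 in BS_1, BS_2 and BS_3. It was 70.6, 63.9 and 65.3 in the HC samples, 35.8, 68.7 and 26.4 in the OB samples, and 7.54 and 33.7 in the CX samples. Every BS sample lay above every sample of the other regions, although BS_2 exceeded the highest HC sample by little. The HC replicates were nearly level, whereas the highest BS and CX samples were 3.80 and 4.47 times the lowest of their region. In the bulk RNA of sorted cells, more cells with such cilia and more RNA per cell cannot be told apart, here and in all results below.

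The outer dynein arm, the main motor of ciliary beating, is built on heavy chains, of which Dnah5, Dnah9 and Dnah11 are members. These heavy chain genes followed different courses over the regions. Dnah9 (chromosome 11, 65831282 to 66168551, minus strand) had normalized counts of 172.4, 70.1 and 113.7 in the BS and 78.7, 49.3 and 59.1 in the HC. In the OB it was 7.60, 0.789 and 1.08, and in the CX 2.51 and 1.53. All HC and BS samples were thus far above all OB and CX samples, where Dnah9 rested on 10 and 3 reads in total.

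Dnah11 (chromosome 12, 117877982 to 118199043, minus strand) was instead well detected in the OB, at 68.4, 80.5 and 64.6. It was 36.9, 47.5 and 42.6 in the HC, 181.9, 34.1 and 103.1 in the BS, and 1.26 and 7.67 in the CX. Both CX samples lay below all others, and every OB sample lay above every HC sample, while the BS samples reached from below the HC to above the OB. Dnah5 (chromosome 15, 28203752 to 28472052, plus strand) was low everywhere, with 5.43, 2.37 and 3.23 in the OB and 18.7, 21.9 and 2.57 in the HC. Its CX samples gave 7.54 and 15.3 and its BS samples 5.26, 12.02 and 2.10. It rested on 103 reads over all 11 samples, the regions overlapped apart from the OB and CX, and no difference of this gene was detectable at this depth.

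Rsph1, a protein of the radial spoke head (chromosome 17, 31255019 to 31277383, minus strand), had normalized counts of 47.5, 35.6 and 32.3 in the HC and 103.0, 20.03 and 40.0 in the BS. The OB samples gave 2.17, 17.4 and 1.62 and the CX samples 7.54 and 0. All HC and BS samples lay above all OB and CX samples, but the lowest BS sample was close to the highest OB sample.

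Hydin and Spag16 belong to the central apparatus. Hydin, a very large protein of the central pair projections (chromosome 8, 110266977 to 110610253, plus strand), had no read in either CX sample. Its normalized count was 84.1, 26.0 and 35.8 in the BS, 30.6, 9.13 and 13.9 in the HC, and 2.17, 0.789 and 7.003 in the OB. Set against the value of 3 reads per CX library, 4.18 on average, the BS mean was at least 11.6-fold higher and the HC mean at least 4.28-fold higher, while the OB mean of 3.32 lay under that floor. Spag16, a WD-repeat protein of the same structure (chromosome 1, 69826970 to 70725132, plus strand), was at 240.7, 58.1 and 160.0 in the BS and 133.7, 81.3 and 49.5 in the HC. In the OB it was 36.9, 9.47 and 7.54 and in the CX 7.54 and 3.07, so that for Spag16 too every HC and BS sample lay above every OB and CX sample.

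Tekt1, a tektin filament protein inside the microtubule doublets (chromosome 11, 72344722 to 72362442, minus strand), was more even. It had normalized counts of 41.0, 54.1 and 107.3 in the BS, 42.5, 8.22 and 54.3 in the HC, 20.6, 37.9 and 23.2 in the OB and 2.51 and 13.8 in the CX. Every BS sample lay above every OB and CX sample, whereas the HC samples reached from below the higher CX sample to the level of BS_2. Ccdc153, a coiled-coil protein of the ciliary axoneme (chromosome 9, 44240676 to 44247306, plus strand), had 44 reads in all, 25 of them in HC_2, where its normalized count was 22.8. It was 3.26 in OB_1, 4.40 in HC_3 and 6.13 in CX_2 and 0 in the 7 other samples, too low to pass the filter on low counts. Fitted without that filter, it passed the thresholds in none of the comparisons below by limma, with the lowest adjusted p, 0.335, between the HC and BS. The HC mean of 9.08 ± 12.1 (SD, n = 3) was 1.76 times the value of 3 reads per BS library, 5.16 on average. That mean rests on HC_2, since HC_1 (0) and HC_3 (4.40) lay under the BS floor, so no least fold is established.

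**Figure D1:**
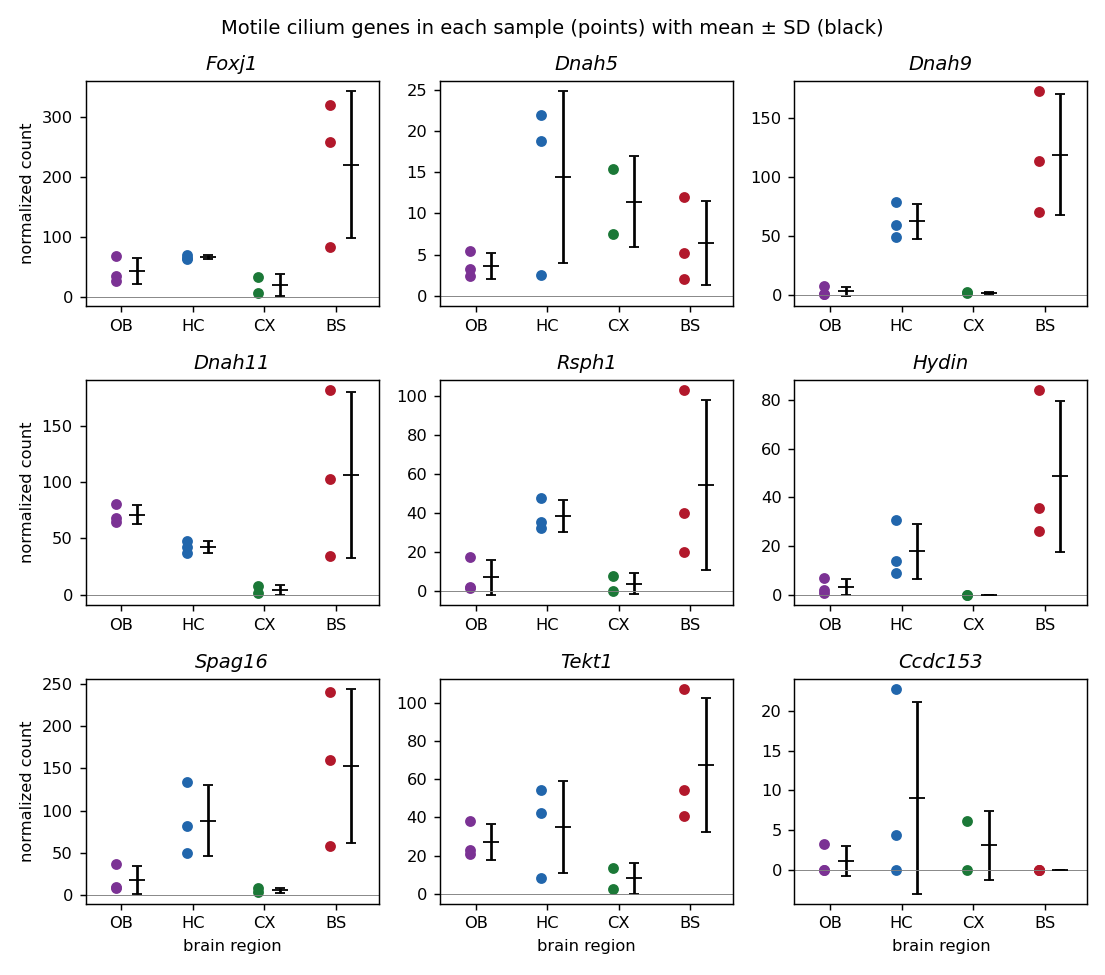
Normalized count (linear axis, own scale per gene) of the 9 motile cilium genes by brain region, with 1 point per sample and the region's mean ± SD beside it in black (n = 3 in the OB, HC and BS and 2 in the CX). Foxj1 is highest in the 3 BS samples, Dnah9, Rsph1 and Spag16 are high in the HC and BS alike, Dnah11 is also high in the OB, and Ccdc153 is at 0 in the BS.

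Taken over the region means, 7 of the 9 members were highest in the BS and the same count was lowest in the CX. Dnah5 and Ccdc153 were highest in the HC. Divided by the length of all exons of each gene in kilobases, so that genes can be compared, the mean BS level was 84.2 per kb for Foxj1, 41.6 for Tekt1, 39.6 for Rsph1 and 22.6 for Spag16. The heavy chains were lower, at 7.44 per kb for Dnah9, 7.36 for Dnah11 and 0.413 for Dnah5, and Hydin was at 2.70. In the OB the order was led by Tekt1 at 16.8 and Foxj1 at 16.6 per kb, followed by Rsph1 at 5.14 and Dnah11 at 4.92, with Dnah9 at 0.198. The SD of the leading OB values, 5.75 and 8.46 per kb, is larger than the gap between them.

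Promoters are shown for 3 of the members in which the motif searched was found and for Dnah9, in which it was not. RefSeq promoters (GRCm38.p6, 250 bases before to 50 after the annotated start) were held for 7 of the 9 members. The half-site bound by RFX factors, which act beside Foxj1 on ciliary genes, was searched as GTTGCC on both strands. It is in capitals in the sequences below, which are written 5′ to 3′ on the strand of the gene.
Spag16, chr1:69826720-69827019, plus strand: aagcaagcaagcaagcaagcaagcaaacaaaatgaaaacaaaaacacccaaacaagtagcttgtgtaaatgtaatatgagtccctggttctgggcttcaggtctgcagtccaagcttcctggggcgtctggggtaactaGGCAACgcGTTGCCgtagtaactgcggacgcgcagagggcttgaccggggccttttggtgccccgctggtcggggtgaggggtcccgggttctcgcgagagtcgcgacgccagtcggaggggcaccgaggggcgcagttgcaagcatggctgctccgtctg
Hydin, chr8:110266727-110267026, plus strand: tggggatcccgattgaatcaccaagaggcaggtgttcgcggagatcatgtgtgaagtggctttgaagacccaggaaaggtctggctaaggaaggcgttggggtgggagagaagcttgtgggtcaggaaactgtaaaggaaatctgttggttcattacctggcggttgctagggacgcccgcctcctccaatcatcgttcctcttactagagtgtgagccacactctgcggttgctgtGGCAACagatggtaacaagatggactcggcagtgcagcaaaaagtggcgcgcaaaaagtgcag
Tekt1, chr11:72361833-72362132, minus strand: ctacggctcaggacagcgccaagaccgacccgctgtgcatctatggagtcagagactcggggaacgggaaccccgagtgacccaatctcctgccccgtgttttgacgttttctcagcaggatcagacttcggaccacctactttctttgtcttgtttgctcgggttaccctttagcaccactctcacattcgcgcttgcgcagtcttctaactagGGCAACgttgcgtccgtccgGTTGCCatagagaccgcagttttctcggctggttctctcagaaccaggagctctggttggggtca
Dnah9, chr11:66168502-66168801, minus strand: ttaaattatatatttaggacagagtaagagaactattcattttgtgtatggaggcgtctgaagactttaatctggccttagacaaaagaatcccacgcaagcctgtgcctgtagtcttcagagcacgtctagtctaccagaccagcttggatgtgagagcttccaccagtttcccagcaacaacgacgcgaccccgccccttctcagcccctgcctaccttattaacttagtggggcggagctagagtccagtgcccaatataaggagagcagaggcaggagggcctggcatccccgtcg
Spag16 holds the half-site 2 times, from 111 and 103 bases before the start, Hydin holds it once, 13 bases before the start, and Tekt1 2 times, 35 and 15 bases before the start of this promoter, while a second Tekt1 promoter held by RefSeq does not hold it. Dnah9, whose values followed those of Spag16 most closely of all members, does not hold these letters in this window. Ccdc153, the member without a read in the BS, holds it 152 bases before its start. The half-site was thus found for 4 of the 7 genes, against 14.1% of 27025 genes with a promoter and 47.9% of 119 genes of the wider motile cilium list. Among 51 genes of primary cilia and ciliary transport the share was 45.1%. The forkhead motif TGTTTAC, searched the same way, occurred in no member promoter and in 3.65% of all promoters. Both motifs were chosen after promoter letters had been seen, and a match is a description of the sequence only.

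Each region was then set against the pooled samples of the other regions, the comparison the study made to find region-specific genes. A gene passed where its unadjusted p was under 0.01, its fold change over 1.5 and its value over 5 in at least 2 samples of a compared region. These comparisons share samples, so a low value in one region raises the difference of the others. The spread in these fits also holds the differences among the pooled regions, not only that between replicates. Fold changes are differences between means of log2(value + 1), in which the added 1 shrinks differences of low values, and they can depart from the ratio of the mean values. Of the 9 members, 8 passed the filter on low counts, among 13875 genes tested. A member high in 1 region only could pass this filter through that region.

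In the BS, Foxj1, Dnah9 and Hydin passed with higher values. These are 3 of 8 members, where 3.98% of all tested genes passed as higher, and 7 of the 8 had a positive difference. Foxj1 was 4.82-fold higher (log2 2.27 ± 0.61 SE, limma adjusted p = 0.0440), and it was the only member past an adjusted p of 0.05, which 5.42% of all genes passed. Dnah9 was 11.8-fold higher (log2 3.56 ± 1.19 SE, limma adjusted p = 0.1003) and Hydin 9.45-fold higher (log2 3.24 ± 1.03 SE, limma adjusted p = 0.0831). The samples of Dnah9 and Hydin overlapped between the BS and HC. By edgeR and DESeq2 neither passed, and the log2 difference was 2.16 and 2.24 for Dnah9 and 2.49 and 2.58 for Hydin, against 2.20 and 2.24 for Foxj1, which passed by both. Every BS sample above every other sample was seen for Foxj1 alone, against 3.7% of all genes. The median log2 difference of the members was 2.24, and that of all genes 0.02. The calls changed with single samples left out. Without BS_1 or without BS_3 no member passed. Foxj1 then had an adjusted p of 0.231 and 0.194 (limma), with a log2 fold change of 1.90 and 2.05 against 2.27 with all samples. Without BS_2, OB_1 or OB_2, 1 member passed.

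In the CX, Dnah11, Hydin, Spag16 and Tekt1 passed with lower values. These are 4 of 8, where 1.74% of all genes passed as lower. Dnah11 differed by log2 -3.87 ± 0.62 (SE) with a limma adjusted p of 0.0929, and Hydin, at 0 in both CX samples, by a fitted log2 of -3.79 ± 1.19 (SE). Spag16 differed by -3.21 ± 1.06 (SE) and Tekt1 by -2.34 ± 0.76 (SE) on the log2 scale. The adjusted p of these 3 genes lay between 0.338 and 0.347 (limma), and 0.0144% of all genes had an adjusted p under 0.05 in this comparison. For Dnah11, Spag16 and Hydin both CX samples lay below all others, as they did for 3.15% of all genes. Dnah5 was the 1 member with a positive difference, of 0.77 ± 0.87 (SE) on the log2 scale. The median of the members was -3.03, or -2.66 with Hydin set at the bound of 3 reads per library, and that of all genes -0.03. The count changed with single libraries, and between 1 and 2 members passed without HC_1, HC_3, CX_1, BS_1, BS_2 or BS_3. Dnah11 passed with each of the 11 samples left out.

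In the OB no member passed by limma, where 8.04% of all genes did. By edgeR and DESeq2, 1 and 2 members passed as lower, where 1137 and 1481 of all 13875 genes passed in either direction. The 1 member with an unadjusted p under 0.05 was Dnah9, with a log2 difference of -3.52 ± 1.197 (SE) and an unadjusted limma p of 0.0108 (adjusted p = 0.125). Dnah11 differed by 1.18 ± 0.99 (SE) and Tekt1 by 0.01 ± 0.85 (SE), the members with a positive sign. In the HC no member passed either, where 1.28% of all genes did, and by edgeR and DESeq2 there was none as well. All 8 differences were positive, from 0.07 ± 0.87 (SE) for Tekt1 to 2.39 ± 1.41 (SE) for Dnah9, none with an unadjusted limma p under 0.05. Here the BS samples are part of the reference of the HC, and the CX samples part of that of the OB. Giving the model 1 mean per region and the other regions equal weight changes both the estimated spread and the weights. Then 2 members passed in the OB, Dnah11 as higher and Dnah9 as lower, where 1585 of all 13875 genes passed. In the HC 2 members passed as higher, where 666 of all genes passed. In the CX 7 passed as lower and in the BS 7 as higher, where 1071 and 1960 of all genes passed.

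**Figure D2:**
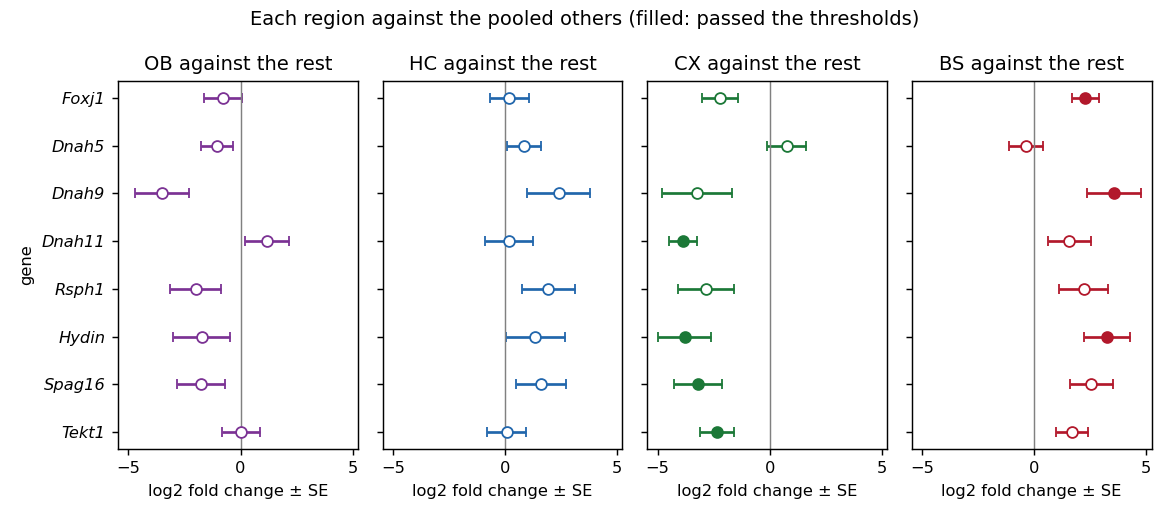
Log2 fold change ± SE (linear axis on log2(value + 1)) of the 8 tested motile cilium genes in each region against the pooled samples of the other regions. Filled points passed the thresholds, 4 CX points and 3 BS points, and every BS value but that of Dnah5 lies above 0. The CX value of Hydin is set by the pseudocount, since both CX samples are at 0.

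Over the 4 regions together, limma's F test separated 6 of the 8 members, Foxj1, Dnah9, Dnah11, Rsph1, Spag16 and Hydin, where 17.3% of all genes passed. The adjusted p ran from 5.82e-05 for Dnah9 to 0.0171 for Rsph1 (limma). Tekt1 (adjusted p = 0.0692) and Dnah5 (adjusted p = 0.577) did not pass. Each of the 6 also passed with any single sample left out, and up to 7 members passed in these repeats.

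Pairs of regions were compared in the same model. Between the CX and BS, 7 of 8 members were lower in the CX and passed, with adjusted p-values from 0.000308 for Dnah9 to 0.0221 for Rsph1 (limma), where 6.91% of all genes passed as lower. Only Dnah5 did not, at 0.90 ± 0.97 (SE) on the log2 scale. Foxj1 was 11.2-fold and Dnah11 19.8-fold lower in the CX. These sizes rest on the CX samples, since without CX_1 and without CX_2 the log2 difference was -2.47 and -4.49 for Foxj1 and -3.33 and -5.28 for Dnah11. Tekt1 no longer passed without CX_1 (log2 -2.09) and Rsph1 no longer without CX_2 (log2 -2.39). For Dnah9, with 3 CX reads, the ratio of BS to CX reads per size factor was 63.4, with an exact 95% counting interval of 21.5 to 309.6.

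Between the OB and BS, Foxj1, Dnah9, Rsph1, Spag16 and Hydin were lower in the OB, 5 of 8 members against 8% of all genes. Dnah9 differed most, with a log2 fold change of -5.14 ± 0.66 (SE, adjusted p = 7.66e-05, limma), and Foxj1 least, with -2.22 ± 0.57 (SE, adjusted p = 0.0147, limma). Dnah11 differed by -0.28 ± 0.60 (SE) and Tekt1 by -1.21 ± 0.72 (SE), neither past the thresholds. Without BS_1, 3 members passed.

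Between the OB and HC, Dnah9, Rsph1 and Spag16 passed as lower in the OB, 3 of 8 against 4.88% of all genes. Dnah9 differed by log2 -4.29 ± 0.66 (SE, adjusted p = 0.00065, limma), Spag16 by -2.46 ± 0.66 (SE, adjusted p = 0.0327, limma) and Rsph1 by -2.87 ± 0.92 (SE, adjusted p = 0.0786, limma). Foxj1 differed by -0.71 ± 0.57 (SE) and Dnah11 by 0.74 ± 0.60 (SE). Without HC_1, 1 member passed.

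Between the HC and CX, 6 of 8 members were higher in the HC, where 3% of all genes passed as higher. Of these, Dnah9, Dnah11, Spag16 and Hydin had an adjusted p between 0.00744 and 0.0364, Rsph1 had 0.102 and Foxj1 0.179 (limma). Between the OB and CX, only Dnah11 passed, higher in the OB, where 4.54% of all genes passed as higher. Its log2 fold change was 4.02 ± 0.67 (SE, adjusted p = 0.00211, limma). Without CX_2, where the lone CX sample is assumed to vary like the other regions, 3 members passed.

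Between the HC and BS no member passed by limma, where 7.6% of all genes did. The 1 member with an unadjusted p under 0.05 was Foxj1, with a log2 fold change of -1.51 ± 0.57 (SE, unadjusted p = 0.0176, adjusted p = 0.179, limma), and its 3 HC samples lay below all BS samples, as for 9.28% of all genes. By DESeq2 Foxj1 (adjusted p = 0.0174) and Dnah11 (adjusted p = 0.101) passed as lower in the HC, and by edgeR Foxj1 (adjusted p = 0.0784). The other members differed by between -1.38 ± 0.79 (SE) for Hydin and 0.89 ± 0.87 (SE) for Dnah5. By region mean, Foxj1, Dnah9, Dnah11, Rsph1, Spag16, Hydin and Tekt1 thus ran from the CX, lowest, to the BS, highest. The comparison of these ends passed by limma for each of them. The ends were picked from the same means, which its p-value does not allow for, and the F test of Tekt1 did not pass (adjusted p = 0.0692, limma). Next to the BS stood the HC, or for Dnah11 the OB, and by limma neither of these neighbours passed against the BS. Next to the CX stood the OB, or for Dnah11 the HC, and of these neighbours only the HC of Dnah11 passed against the CX.

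**Figure D3:**
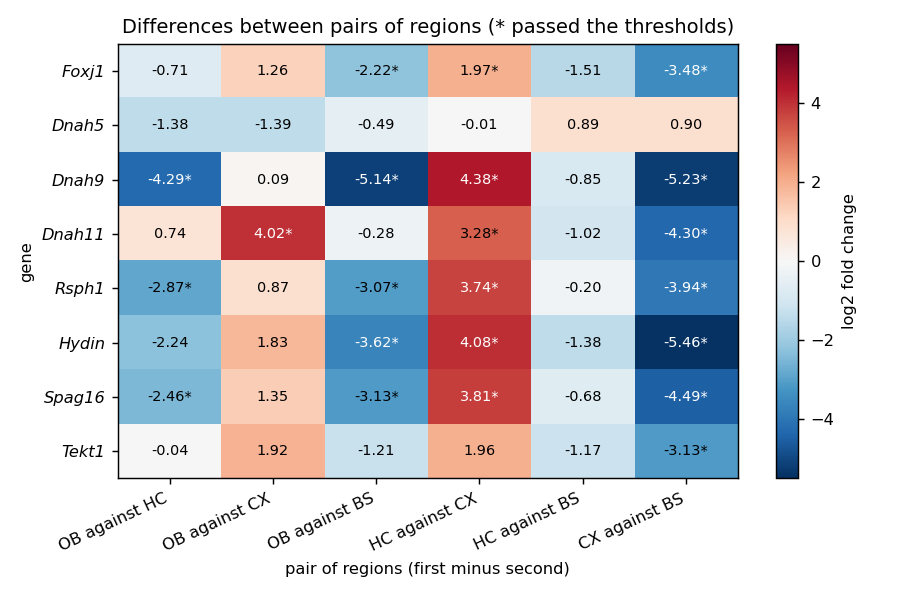
Log2 fold change of the 8 tested motile cilium genes for each pair of regions, first region minus second, printed in each cell and coloured on a scale centred at 0. Stars mark differences past the thresholds: 7 for CX against BS, 6 for HC against CX, 5 for OB against BS and none for HC against BS. The values of Hydin against the CX are set by the pseudocount.

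The median residual SD on the log2 scale within regions was 0.91 over the 8 tested members and 0.45 over all 13875 genes, so replicates of the members varied more than those of the middle gene. Over the 6118 tested genes with a mean value in the range of the members, 8.77 to 94.1, it was 0.66. It was 0.90 over 20 choroid plexus markers. Rsph1 had the largest spread, 1.33, and Dnah9 the smallest, 0.78. Within the BS the sum of the members was 1148 in BS_1, 820.9 in BS_3 and 358.6 in BS_2.

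Dnah9 and Dnah11 code for closely related heavy chains that, in airway cilia, occupy different stretches of the cilium, and their proportion differed between samples. The value of Dnah11 divided by that of Dnah9 was 9, 102 and 60 in the OB samples. It was 0.468, 0.963 and 0.721 in the HC and 1.05, 0.486 and 0.907 in the BS. The OB ratios rest on 7, 1 and 2 reads of Dnah9, yet all 3 lay above every HC and BS ratio. The CX ratios of 0.5 and 5 rest on 3 reads of Dnah9 and are not interpretable. The ratio was looked at after the values had been seen, and the difference was not tested. Dnah11 shares 642 exonic bases with Cdca7l on the other strand, and whether counting used strand is not given in the sources used here. Cdca7l, which codes for a nuclear protein that binds Myc, had values of 8.69, 0 and 18.3 in the OB samples and at most 4.21 elsewhere. Of the 75-base stretches of Dnah11, 4.25% also occur in Cdca7l or Gm47891. The part of shared bases in the Dnah11 values was not tested. Dnah9 and Hydin share 495 and 237 exonic bases with Gm12296 and Gm26832, which are not among the entries, and the other members share none.

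The wider set of motile cilium genes was described from a list of 143 genes in addition to the members, of which 134 were found and 106 tested. In the OB 27 passed as lower and 2 as higher, where 3.89% and 4.15% of all genes did, and 16 of them had an adjusted p under 0.05 (limma), as 4.58% of all genes did. In the BS 23 passed as higher and 2 as lower, where 3.98% and 5.05% of all genes did, and 13 of them had an adjusted p under 0.05, as 5.42% of all genes did. In the CX 3 passed, all lower, where 1.74% of all genes did, and in the HC none, where 1.28% of all genes did. The same shares of all genes stand behind the counts by role given next. The median log2 difference was -1.60 in the OB, or -1.55 with genes at 0 set at their bound, -1.14 in the CX, or -0.91 so set, 0.56 in the HC and 1.80 in the BS, each beside a median of all genes between -0.03 and 0.02. The F test separated 59 of the 106, where 17.3% of all genes passed. Of the 134 genes, 23 had no read in the OB, 24 in the CX, 11 in the HC and 14 in the BS. These regions held 20009282, 9902941, 27084946 and 11481176 reads in all, and the counts were not corrected for depth. A difference between the members and this list was not tested.

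By role, 5 of 10 listed transcription regulators of multiciliated cells passed the filter, of which 1 passed as lower in the OB and 1 as higher in the BS. Trp73, which codes for p73, had no read in the OB or CX, an HC mean of 33.6 ± 9.16 (SD, n = 3) and a BS mean of 64.4 ± 33.7 (SD, n = 3). Against the OB floor this is at least 13.9-fold and 26.7-fold higher. Gmnc, which codes for a geminin relative that starts multiciliation, was 76.8 ± 49.6 (SD, n = 3) in the BS and passed as higher (adjusted p = 0.0136, limma), against an HC mean of 9.91 ± 7.34 (SD, n = 3) and an OB mean of 1.44 ± 1.25 (SD, n = 3). Rfx3, which also serves primary cilia, was high everywhere, with region means from 979 ± 87.9 (SD, n = 3) for the BS to 1547 ± 149 (SD, n = 3) for the HC. It passed the F test (adjusted p = 0.0274, limma) but no comparison of a region with the rest. Mcidas, another starter of multiciliation, had no read in any sample.

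Of 10 tested inner dynein arm genes, 4 passed as lower in the OB, all with an adjusted p under 0.05. Dnah6, an inner arm heavy chain, had no read there, while its HC mean of 73.7 ± 24.3 (SD, n = 3) and BS mean of 199.2 ± 148 (SD, n = 3) were at least 30.5-fold and 82.5-fold higher. Wdr63, an intermediate chain of the inner arm, had no read in the OB either, and an HC mean of 61.7 ± 9.91 (SD, n = 3). Of 5 tested outer arm genes besides the members, 1 passed, Dnah8, a heavy chain best known from sperm, which was higher in the OB at 43.3 ± 18.4 (SD, n = 3) against 10.4 ± 2.12 (SD, n = 3) in the BS (adjusted p = 0.0760, limma). None of 4 genes for docking of the outer arm passed by limma in a comparison of a region with the rest, though Ccdc114 in the OB and Armc4 in the BS had an unadjusted p of 0.0370 and 0.0261.

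Among 9 radial spoke genes, 3 passed as lower in the OB and 2 as higher in the BS. Rsph4a, a spoke head protein like Rsph1, had an OB mean of 3.42 ± 4.63 (SD, n = 3) and a BS mean of 152.6 ± 122 (SD, n = 3). Of 10 central pair genes, 2 passed as lower in the OB and 4 as higher in the BS. Spag6, a central apparatus protein that binds Spag16, had an OB mean of 0.180 ± 0.311 (SD, n = 3) and an HC mean of 75.4 ± 45.8 (SD, n = 3). Of 11 genes of the nexin-dynein regulatory complex, which links neighbouring doublets, and the molecular ruler, 4 passed as lower in the OB and 4 as higher in the BS. Drc7 had the lowest F test p of the whole list (adjusted p = 3.09e-07, limma), with an OB mean of 0.625 ± 0.561 (SD, n = 3) and a BS mean of 385.3 ± 207 (SD, n = 3). Its HC mean was 216.4 ± 91.1 (SD, n = 3) and its CX mean 29.6 ± 0.722 (SD, n = 2).

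Of 10 dynein assembly genes, 1 passed as lower in the OB and 3 as higher in the BS. Zmynd10, which helps load dynein arms in the cytoplasm, was the OB gene, at 1.42 ± 1.60 (SD, n = 3) against 55.5 ± 45.5 (SD, n = 3) in the BS. Of 19 tektins and other proteins inside the doublets, 7 passed as lower in the OB, 6 as higher in the BS and 2 as lower in the BS. Nme7, the stronger of the last, also works at microtubule-organizing centres, and was 20.5 ± 5.59 (SD, n = 3) in the BS against 93.1 to 106.7 as means of the other regions (adjusted p = 0.000132, limma). Of 23 other genes of ciliated cells, 5 passed as lower and 1 as higher in the OB, and 3 as higher in the BS. The last OB gene was Stoml3, a membrane protein known from cilia of olfactory neurons, at 104.7 ± 6.98 (SD, n = 3) in the OB, 0 in the HC and BS and 0.767 ± 1.08 (SD, n = 2) in the CX (adjusted p = 4.59e-05, limma).

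**Figure D4:**
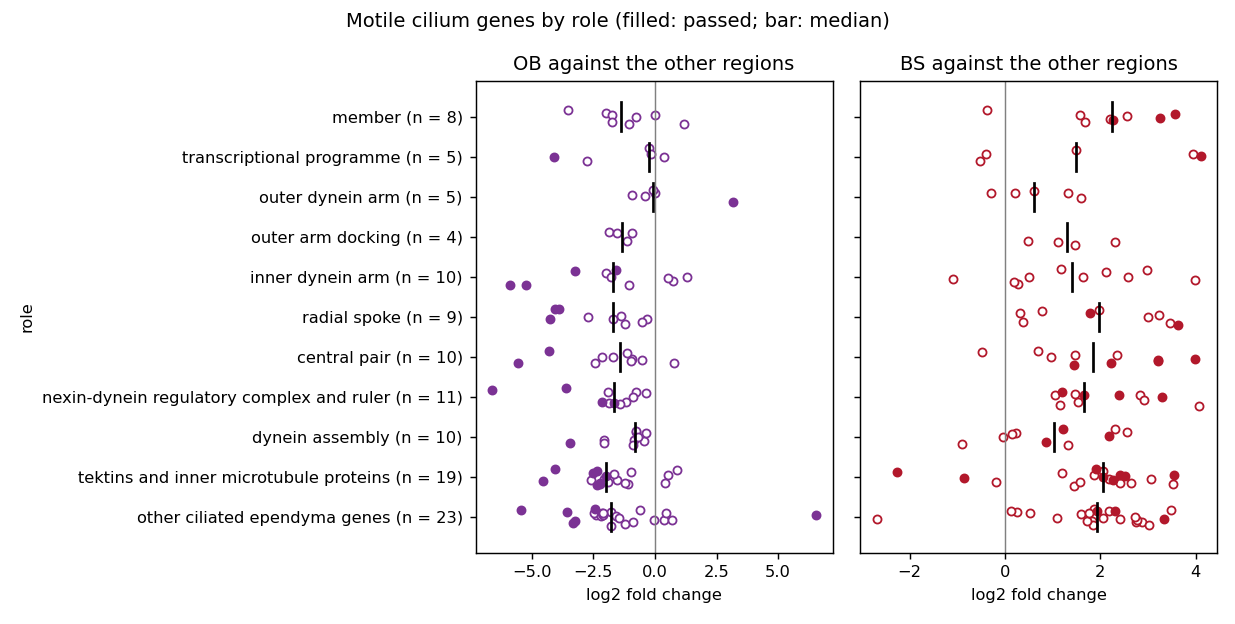
Log2 fold change of the tested motile cilium genes by role in the OB (left) and BS (right) against the pooled other regions, with 1 point per gene, filled where the gene passed the thresholds, and a bar at the median of each role. In the BS every role has its median above 0, with the median of the 8 members at 2.24, and in the OB Stoml3 and Dnah8 are the 2 filled points to the right of 0.

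Primary cilium and ciliary transport genes, which astrocytes also use, had smaller median differences. Of 58 tested, 2 passed as lower in the OB, 1 as lower in the CX, none in the HC and 2 as higher in the BS, which is 2 of 58 against 3.89% of all genes as lower in the OB and 3.98% as higher in the BS. Their median log2 differences lay between -0.26 in the OB and 0.22 in the BS. Wdr35, a subunit of the transport complex that returns cargo from the tip, had an OB mean of 73.1 ± 3.83 (SD, n = 3) and a BS mean of 205.1 ± 58.4 (SD, n = 3), and passed as lower in the OB (adjusted p = 0.0335, limma).

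Choroid plexus markers were high in the HC and BS, as the members were. All 20 listed markers were found, and their summed value was 78949 to 377965 in the BS and 109251 to 226528 in the HC, against 2598 to 3143 in the OB and 3560 to 8818 in the CX. Ttr, the transthyretin gene and the most abundant of them, had an HC mean of 107377, a BS mean of 125514, a CX mean of 2763 and an OB mean of 9.49. Folr1 had no read in the OB, and Kl and Kcnj13 had OB means of 5.92 and 32.0. Within the BS the sum followed the members, highest in BS_1, then BS_3, then BS_2. In the CX the order was opposite, since CX_1 had the higher choroid sum and the lower member sum, 36.4 against 81.3. These CX member sums rest on 29 and 53 reads. Within the HC the orders differed, where the member sums of HC_2 and HC_3 were close, at 339.8 and 324. In the OB, Foxj1, Dnah11 and Tekt1 were detected in samples in which Ttr was at most 16.6. The summed value of 10 astrocyte markers was lowest in BS_1, at 96175, and reached 283788 in BS_2 and 635227 in CX_1. The part of choroid plexus RNA in the differences of the members was not tested.

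Markers of other cells differed in their course over the regions. The sum of 7 oligodendrocyte markers was 50390 to 86514 in the BS against at most 38254 elsewhere. That of 5 meningeal markers was 2716 in BS_1, and 89.2 to 532.9 in all other samples. The 10 markers of olfactory and respiratory epithelium summed to 167 to 472.4 in the OB and at most 8.42 elsewhere, chiefly Omp, the olfactory marker protein, with 156.7 ± 73.2 (SD, n = 3) in the OB. They stand beside the OB values of Stoml3, and their part in it was not tested. For microglial and vascular markers the ranges of the regions overlapped. The sum of 8 neuronal markers was 1302 to 2421 in the HC, just below the 2434 to 3233 of the BS, and 2109 to 3695 in the OB. Of the tanycyte list, cells of the ventricle wall without motile cilia, 2 of 4 tested genes passed as higher in the OB, where 4.15% of all genes did. Its sum was 926.8 to 1190 in the OB, against at most 248.4 elsewhere. Rax, the defining marker of the list, was at 1.09, 0 and 4.85 in the OB samples and at most 2.105 elsewhere. The OB sum thus rests on other genes of the list.

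**Figure D5:**
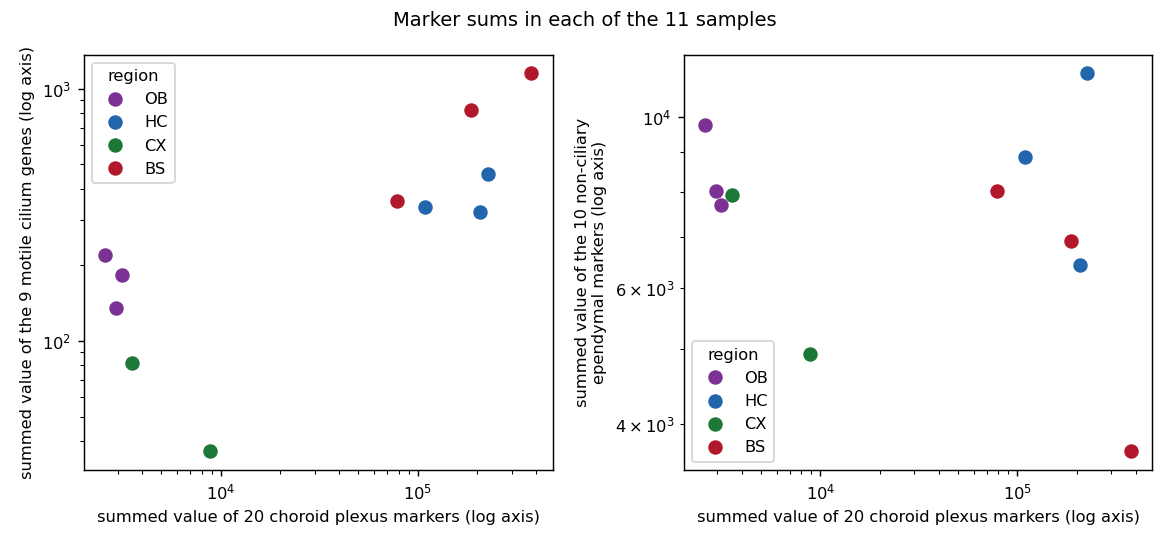
Summed normalized count of the 9 motile cilium genes (left) and of 10 non-ciliary ependymal markers (right) against the summed value of 20 choroid plexus markers in each of the 11 samples, on log axes, coloured by region. On the left the HC and BS samples are at the upper right, with BS_1 highest at 1148, while the OB samples, at 134.7 to 217.9, lie above the CX samples at a lower choroid plexus sum. On the right the ependymal sum shows no such separation.

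Likeness to the members was measured as the Pearson correlation, over the 11 samples, of log2(value + 1) with the mean z-score of the members, for 13689 genes outside the set with a mean value over 5. The samples share their region, depth and cell makeup, so r is a description. The highest was Hipk3, a kinase gene, with r = 0.966, followed by Capsl (0.957), a calcium-binding protein gene of the ciliated cell list, A2m (0.955), Slc4a10 (0.949), a bicarbonate transporter, Ecm2 (0.947), Itpripl1 (0.946), Fbn1 (0.945), App (0.942), Pgm5 (0.939) and Scube3 (0.938). Hipk3 had means of 563.7 (OB), 990.1 (HC), 460.2 (CX) and 1316 (BS). The median r was 0.78 over 20 choroid plexus markers, 0.68 over 7 oligodendrocyte markers, 0.66 over 102 genes of the wider motile cilium list, 0.65 over 5 meningeal markers, 0.34 over 58 primary cilium genes, 0.09 over 9 non-ciliary ependymal markers, -0.48 over 10 astrocyte markers and 0.00 over all genes. The ependymal marker Cd24a is also listed as a neural stem cell and neuroblast marker and was counted only there, while the ependymal sums and differences above include it. Of the 100 genes ranked highest, 10 belonged to the motile cilium list.

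Among the members themselves, Dnah9 and Spag16 were most alike (r = 0.949 over 11 samples), followed by Spag16 and Hydin (r = 0.895) and Dnah9 and Hydin (r = 0.891). Foxj1 correlated at 0.685 to 0.803 with Dnah9, Dnah11, Rsph1, Spag16, Hydin and Tekt1. Dnah5 and Ccdc153 stood apart, with r between -0.438 and 0.414 with every other member and with each other.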

How the data were processed

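Whole-transcriptome RNA-Seq was available for 11 samples (3 OB, 3 HC, 2 CX, 3 BS), grouped by the tissue in the labels. The authors mapped reads to mm10 with STAR 2.5.0a, counted them on UCSC transcripts and normalized with DESeq2 1.20.0. The deposited unit is a normalized signal, reads divided by 1 size factor per sample. The study calls these values RPM, but they are not scaled to a common sum. Of the values, 100% were whole multiples of 1 step per sample (tolerance 0.01 read), so reads could be recovered. Depth was 2830746 to 14151670 reads.

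Values were tested as log2(value + 1) with limma 3.58.1 (R 4.3.3, two-sided, mean-variance trend) after edgeR 4.0.16 filterByExpr, which left 13875 genes. Adjusted p-values follow Benjamini and Hochberg over these. The count tests edgeR and DESeq2 1.42.0, run on recovered reads, were alternatives, as were TMM scaling, a pseudocount of 0.25, no filter, adjusted p-values, a replicate block, equal region weights and leaving out each sample. The fits were tested on simulated data. Gene models were GENCODE M21 and promoters RefSeq. Spreadsheet-like date names replaced 27 gene names, none a member. Members and lists were chosen with earlier results of these data known. Named genes were the members, the 3 lowest F test p-values per list role with single exceptions chosen after their values were seen (Mcidas, Tmem212, Mia, Cdca7l), defining markers and the 10 genes most like the members. Immunostaining and ChIP were not analysed here.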

Additional observations from a re-analysis of the deposited data

How the results depend on the processing

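No difference of a member changed sign with a call under any alternative, and TMM scaling moved the median of all genes by under 0.1. Of the single-gene results, 748 kept their side of the thresholds under the other alternatives, 52 no longer passed and 24 passed newly, and 891, 59 and 18 did so with a sample left out. Counts of members moved as follows. With edgeR, 1 member passed each for the OB, the CX and the BS and 1 between the HC and BS. Of all 13875 genes, 1137, 296, 1126 and 1007 passed there. With DESeq2 these were 2 for the OB, 6 for the CX, 1 for the BS and 2 between the HC and BS, where 1481, 589, 1420 and 1213 of all genes passed. A pseudocount of 0.25 left 1 in the BS, where 1214 of all genes passed, and no filter left 2 in the CX, where 378 of 18385 genes passed. A mean per region with equal weights gave 2 members each for the OB and HC and 7 each for the CX and BS. Calls over all genes rose as well, from 1116 to 1585 (OB), 178 to 666 (HC), 384 to 1071 (CX) and 1253 to 1960 (BS). In the CX, Dnah9 kept its log2 difference of -3.24 under the model with equal weights. Its unadjusted limma p went from 0.0581 to 0.000121, so there the change lay in the estimated spread. With an adjusted p under 0.05, limma left 0 CX calls and 1 BS call, where 2 and 737 of all genes passed. With that rule, chosen after seeing the data, edgeR gave 0 (CX), 1 (BS) and 2 for HC against CX. Of all genes, 2, 572 and 125 passed there. Under the same rule DESeq2 gave 1 (OB), 2 (CX), 1 (BS) and 1 for HC against BS, where 1201, 115, 1088 and 928 of all genes passed. The causes were not tested.

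The samples share only a number: 3 of 15 same-number pairs deviated together with r over 0.1 (range -0.16 to 0.25), and 11 of 30 comparisons matched a sample best with its own number. A replicate block left 2 members in the CX and 1 in the BS.

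Without single samples, the count of members passing spanned 0 to 2 (OB), 1 to 5 (CX), 0 to 4 (BS), 6 to 7 in the F test, 1 to 3 for OB against HC, 1 to 3 for OB against CX, 3 to 5 for OB against BS, 5 to 6 for HC against CX, 0 to 2 for HC against BS and 6 to 7 for CX against BS, and was 0 for the HC throughout. The members' residual SD ranged from 0.86 to 0.96. Few reads limit Dnah5, Ccdc153 and the CX values of the members, and BS_2 and BS_3 were the shallowest samples. Having 2 CX samples limits every comparison with the CX.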
